A study of Mus musculus with 106 samples.

Results

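The Krüppel-like factors examined here were 10 genes, Klf2, Klf3, Klf4, Klf5, Klf6, Klf9, Klf10, Klf11, Klf13 and Klf15, out of 21647 genes in the table of 8 tissues, 23393 in the table of the 34 °C experiment and quadriceps, and 23420 in the bone marrow and spinal cord tables. They were chosen by symbol, with earlier results of these data in view, so the fold changes and p-values below describe them and are not independent evidence that the family responds to temperature. Counts were compared between wild-type C57BL/6 mice kept at 10 °C, after a stepwise lowering of the temperature, and mice kept at 22 °C, in 11 tissues. The study's methods give 2 weeks at 10 °C after that lowering. A separate experiment compared C57BL/6J mice kept at 34 °C for 4 weeks with their own 22 °C controls in 5 of these tissues. These are the strain names of the labels, which give C57BL/6J for all quadriceps libraries too, and the study's methods name C57BL/6J males in both experiments. All mice were wild type. The labels give an age of 11 weeks for the 10 °C experiment, and of 12 weeks for the 34 °C experiment and quadriceps. The tissues were interscapular brown fat (iBAT), inguinal subcutaneous fat (ingSAT), perigonadal visceral fat (pgVAT), quadriceps, ileum, liver, spleen, bone marrow, spinal cord, brain and hypothalamus. Each group held 3 libraries, except bone marrow with 6 and spinal cord with 5. Most libraries were pools of a pair of mice, whereas bone marrow and spinal cord libraries came from single mice, and the warm iBAT experiment mixed both kinds. The brain comparison at 10 °C used 2 of its 3 libraries at 22 °C, as the study's own group means did. Cold and warm mice came from different suppliers.

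Krüppel-like factors are zinc finger transcription factors that bind CACCC and GC-rich boxes in promoters. Klf2, Klf4 and Klf6 are induced by signals such as shear stress, and Klf2 and Klf4 keep endothelial cells quiescent. Klf9 and Klf15 are induced by glucocorticoids, and Klf15 drives amino acid catabolism and gluconeogenesis in liver and muscle. Klf10 and Klf11 are induced by TGF-beta and repress transcription through the Sin3 corepressor, Klf3 represses through the corepressor CtBP, and Klf5 is active in proliferating gut epithelium. In GENCODE M21 (GRCm38) the genes with calls lie at chr8:72319033-72321656 (Klf2), chr4:55527143-55532466 (Klf4), chr14:99298691-99315036 (Klf5), chr13:5861482-5870394 (Klf6), chr15:38291463-38300706 (Klf10) and chr12:24651274-24662789 (Klf11), with Klf4 and Klf10 on the minus strand.

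The 75 libraries compared at 10 °C held between 4262403 and 58290770 counts each, with a median of 17676815. The 30 compared at 34 °C held between 29545458 and 62880248, with a median of 41889787. The labelled tissues showed their defining markers, and some also held markers of other tissues, whose source was not tested. The summed level of 4 epididymis markers (Lcn5, Crisp1, Adam7 and Spag11b) in pgVAT was 15100, 2.46 and 18800 CPM (counts scaled to the size of the library) at 10 °C and 2580, 873 and 545 CPM at 22 °C. The summed level of 4 skeletal muscle markers in iBAT of the 34 °C experiment was 2.69, 3700 and 6.6 CPM at 22 °C and 2860, 774 and 866 CPM at 34 °C. In bulk tissue, fewer cells of a type and less RNA per cell cannot be told apart. In the sentences below a gene is called where edgeR's unadjusted p was at most 0.05 and the fold change was above 1.5, the limits the study used, and adjusted p-values are over all genes tested in the tissue.

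At 10 °C, 14 of 106 tested pairs of gene and tissue were called, 11 lower and 3 higher. By tissue, 0.0904% to 9.14% of all genes were called lower there and 0.181% to 7.20% higher. At 34 °C, 4 of 47 were called, 3 lower and 1 higher, beside 0.150% to 7.19% and 0.0429% to 12.2% of all genes. The shares of each tissue are given below. Adjusted p was under 0.05 for 8 of the pairs at 10 °C. They were 3 in iBAT, beside 11.3% of all genes, 1 in ingSAT (7.51%), 3 in bone marrow (19%) and 1 in brain (0.122%). At 34 °C it was 1 pair, in iBAT, beside 28.9% of all genes. The calls at 10 °C lay mostly in the 3 fat depots and quadriceps, and Klf11 gave the most of them.

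**Figure D1:**
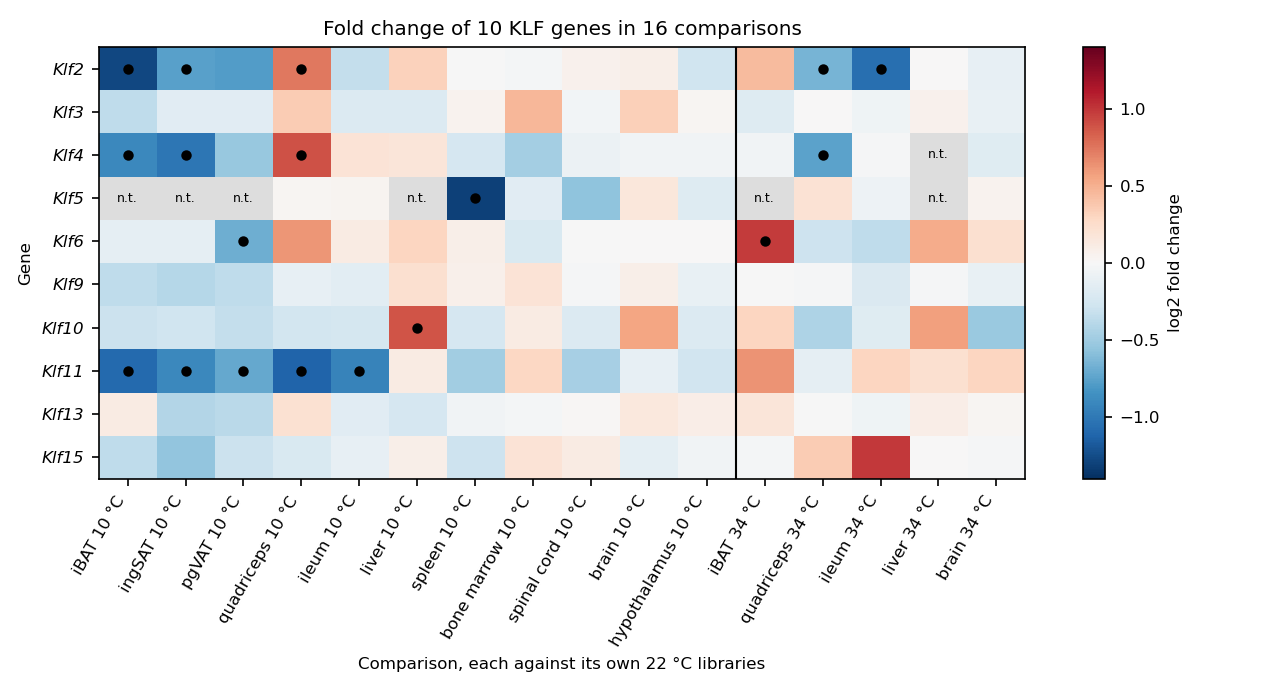
Log2 fold change of the 10 genes (rows) in 16 comparisons (columns), each against its own 22 °C libraries, with 10 °C to the left of the line and 34 °C to the right. Black dots mark called pairs and n.t. marks genes below the level filter. Klf11 has 5 dots at 10 °C, in the 3 fat depots, quadriceps and ileum.

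Klf11 was lower at 10 °C in 5 of 11 tissues and was called higher in none. Its level in iBAT was 11.8, 19.7 and 13.9 CPM at 10 °C and 27.9, 32.1 and 36.2 CPM at 22 °C. The groups did not overlap, and the level fell by 1.09 on the log2 scale (SE 0.193, adjusted p = 0.00937). Groups without overlap were common at 10 °C, at 33.3% of all genes in iBAT, 32.8% in ingSAT, 11.8% in pgVAT, 19.1% in quadriceps, 23.6% in ileum, 24.1% in liver, 15.7% in spleen, 24.9% in brain and 5.84% in bone marrow. In ingSAT it was 21.4, 16.6 and 15.5 CPM in the cold against 33.3, 35.5 and 31 CPM, a log2 fold change of -0.90 (SE 0.156, adjusted p = 0.0218). Quadriceps had 4.93, 4.01 and 2.52 CPM in the cold against 8.31, 8.18 and 8.48 CPM, a log2 fold change of -1.12 (SE 0.235, adjusted p = 0.225). These 22 °C quadriceps libraries lay within a very narrow range, and every cold library lay below it. Ileum had 5.38, 6.99 and 6.45 CPM in the cold against 11.8, 11.7 and 12.2 CPM, a log2 fold change of -0.93 (SE 0.132, adjusted p = 0.0608). Each of these 4 calls held when any 1 library was left out. In the cold ileum 2 of 4 T cell markers were called lower, and their part in the Klf11 result was not tested.

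The pgVAT call of Klf11 rested on few libraries. Levels there were 15.2, 26.7 and 14.1 CPM at 10 °C and 33.6, 30.5 and 28.5 CPM at 22 °C, a log2 fold change of -0.72 (SE 0.298, adjusted p = 0.593). The cold library without epididymis RNA, at 26.7 CPM, was the closest to the controls. Without it the log2 fold change was -1.09 and the call held. Without cold replicate 1 it was -0.60, without cold replicate 3 it was -0.56, and without 22 °C replicate 1, 2 or 3 it was -0.66, -0.74 or -0.77, and the call was lost each time. Among the cold libraries Klf11 was lower where epididymis RNA was higher. Among the 22 °C libraries the order was the reverse. Of 12 immediate early genes, which many stimuli and tissue handling induce, 6 were called lower and 1 higher in pgVAT, with a median log2 fold change of -0.88. The part of either in the result was not tested.

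**Figure D2:**
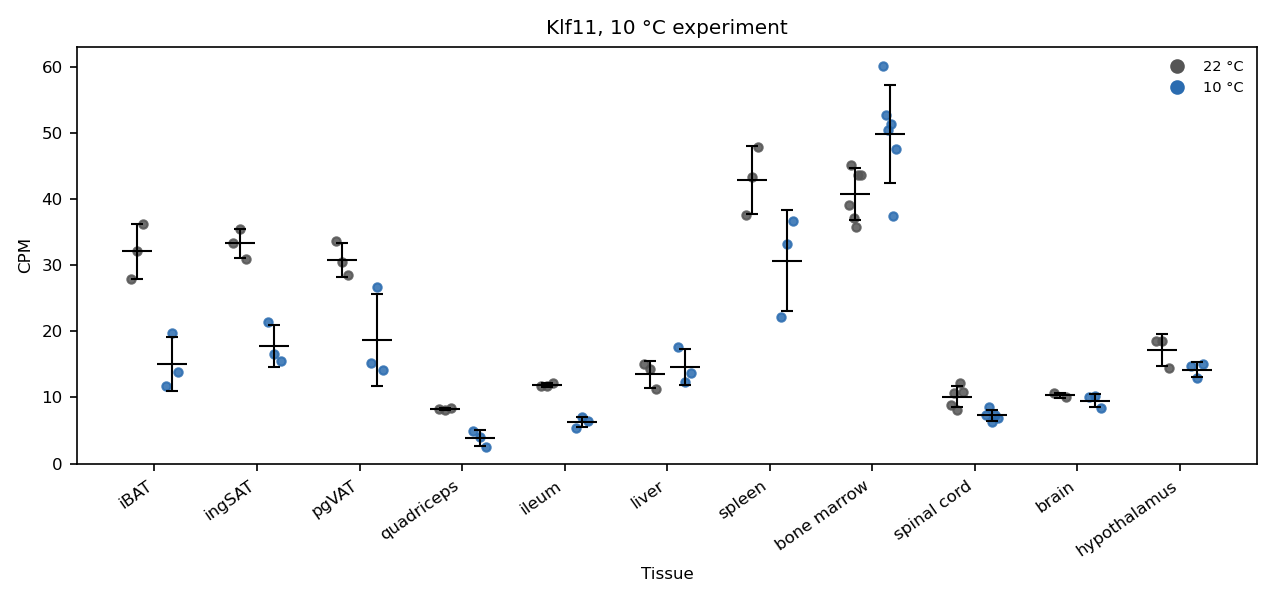
Klf11 level in CPM (vertical axis) by tissue (horizontal axis) at 22 °C and 10 °C. Points are libraries, and bars are the mean with SD. In iBAT, ingSAT, pgVAT, quadriceps, ileum and spleen the cold libraries all lie below the 22 °C libraries.

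Elsewhere Klf11 was not called. Spleen libraries did not overlap either, at 22.1, 33.2 and 36.6 CPM against 37.6, 43.3 and 47.8 CPM, but the log2 fold change was -0.49. Spinal cord had a log2 fold change of -0.47 (SE 0.12, adjusted p = 0.78), hypothalamus -0.27, brain -0.11 and liver 0.11. Bone marrow went the other way, from 35.8 to 45.1 CPM (median 41.4) at 22 °C to 37.4 to 60.1 CPM (median 50.9) at 10 °C, with overlapping groups and a log2 fold change of 0.29 (SE 0.0925, adjusted p = 0.0389). The effect of cold on Klf11 differed among the 8 tissues of the shared table (interaction adjusted p = 0.0199, as for 16.4% of genes at that threshold). At 34 °C the log2 fold changes were 0.63 in iBAT, 0.30 in ileum, 0.22 in liver, 0.30 in brain and -0.13 in quadriceps. None of these was called. Brain was the only one of the 5 whose groups were apart, as for 6.6% of all genes there, with 10.6, 10.5 and 10.7 CPM at 34 °C and 8.85, 8.53 and 8.35 CPM at 22 °C (adjusted p = 1).

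Of 9279 genes tested in all 11 tissues at 10 °C, 4 were called lower in 5 or more, or 0.0431%: Klf11, Mt2 (a metallothionein), and the clock output genes Dbp and Nr1d1. Across the 16 comparisons, the log2 fold changes most like those of Klf11 among 8747 genes were those of Pot1a (Pearson r = 0.87), Zkscan17 (0.86) and Dbp (0.85). These points share tissues and animals, and the correlation is a description. Dbp, a PAR bZIP factor whose transcript cycles each day, had log2 fold changes of -2.22 in iBAT, -2.71 in ingSAT, -2.06 in pgVAT, -1.92 in quadriceps and -1.63 in ileum at 10 °C. In liver Dbp was called higher, at 2.11. Klf11 and Dbp were thus called lower in the same 5 tissues. Of 15 clock genes, 7 were called lower and 3 higher in iBAT, 6 and 2 in ingSAT, 6 and 2 in pgVAT, and 4 and 2 in ileum. In quadriceps 2 of 14 were lower and 1 higher. Where Klf11 was not called, liver had 1 of 13 lower and 2 higher, spleen 1 of 15 higher and spinal cord 1 of 14 lower. No clock gene was called in bone marrow, brain or hypothalamus. At 34 °C 1 of 13 was lower and 3 higher in iBAT, and none was called in the other tissues. The median log2 fold change of the list was -0.67 in iBAT at 10 °C, beside -0.02 for all genes. The hour at which tissues were taken is not given in the sources used here, and the part of the clock in the Klf11 result was not tested.

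The promoter of Klf11 is shown because it holds the E-box CACGTG, the letters bound by the clock activators. Promoters came from RefSeq on GRCm38.p6, and 8 of the 10 genes matched an entry. The 250 bases before each RefSeq start were searched on both strands. CACGTG was found in 4 of the 8 (Klf4, Klf6, Klf11 and Klf15), and in 6.02% of 32851 promoters of that length. Klf15 holds it 2 times and was not called in any comparison. The Klf2 window is shown for a MEF2 motif, which was found in 1 of the 8 and in 2.92% of promoters. The CArG box (1.47% of promoters) and the cAMP response element (1.55%) were in 0 of the 8. CACCC was in 5 (52%) and GGGCGG in 7 (32.7%). A match describes letters, not binding. The runs below are 5′ to 3′ on the gene's strand and stop at the GENCODE gene start where that is earlier, with capitals for the E-box, the MEF2 motif and the CACCC box on either strand. They lie at chr12:24651121-24651273 (Klf11, plus strand), chr6:90462326-90462575 (Klf15, plus strand) and chr8:72318812-72319032 (Klf2, plus strand). The E-box of Klf11 begins 214 bases before the RefSeq start, and the MEF2 motif of Klf2 118 bases before it.
Klf11: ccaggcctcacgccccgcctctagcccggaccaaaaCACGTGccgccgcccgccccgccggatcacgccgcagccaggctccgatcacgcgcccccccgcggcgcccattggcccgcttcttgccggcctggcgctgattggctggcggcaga
Klf15: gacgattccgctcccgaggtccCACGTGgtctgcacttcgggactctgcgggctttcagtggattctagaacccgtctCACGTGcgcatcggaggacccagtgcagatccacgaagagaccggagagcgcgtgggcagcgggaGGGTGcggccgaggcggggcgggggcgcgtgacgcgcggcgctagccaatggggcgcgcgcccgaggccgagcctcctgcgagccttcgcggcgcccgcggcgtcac
Klf2: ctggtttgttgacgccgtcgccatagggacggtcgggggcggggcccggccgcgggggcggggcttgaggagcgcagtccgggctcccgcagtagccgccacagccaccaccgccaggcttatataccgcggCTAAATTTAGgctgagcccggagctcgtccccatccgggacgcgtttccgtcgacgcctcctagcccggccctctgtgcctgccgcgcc

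Klf2 and Klf4 were lower in brown and subcutaneous fat at 10 °C. Klf2 in iBAT was 16.6, 34.1 and 23.6 CPM in the cold and 49.4, 72.7 and 56 CPM at 22 °C, 2.41-fold lower (log2 fold change -1.27, SE 0.248, adjusted p = 0.0135). Klf4 in iBAT was 22.2, 33.2 and 28.3 CPM against 45.5, 56.3 and 53.9 CPM, 1.87-fold lower (log2 fold change -0.90, SE 0.159, adjusted p = 0.00937). Neither gene overlapped between groups. In ingSAT, Klf2 was 24.6, 44.2 and 29.4 CPM against 64.8, 54.5 and 47.2 CPM, a log2 fold change of -0.76 (SE 0.236, adjusted p = 0.0952). Klf4 in ingSAT was 48.2, 31.8 and 31.7 CPM against 99.4, 73.1 and 52.6 CPM, a log2 fold change of -1.01 (SE 0.271, adjusted p = 0.0683). The ingSAT groups were apart for both genes, although neither passed adjustment. All 4 calls held when any 1 library was left out. In pgVAT the log2 fold changes were -0.78 for Klf2 and -0.53 for Klf4, and neither was called. Klf2 there was 13.2, 30.3 and 19.7 CPM in the cold against 31.5, 32.6 and 44.5 CPM (adjusted p = 0.593). Its groups were apart, as for 11.8% of all genes in pgVAT, and those of Klf4 overlapped.

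Cell markers were counted beside these results. Both genes are expressed in endothelial cells and macrophages. The summed level of 10 endothelial markers in iBAT was 966, 1260 and 1100 CPM in the cold and 941, 1120 and 1020 CPM at 22 °C, and the groups overlapped. In ingSAT it was 783, 708 and 680 CPM against 1310, 1130 and 531 CPM, with 3 of 10 markers called lower, and 4 of 6 macrophage markers were called lower. No marker of either list was at 0 in these groups. In ingSAT all 4 brown adipocyte markers were called higher, and the smooth muscle gene Acta2 was called lower. The part of these cells in the ingSAT results was not tested. Immediate early genes also moved: 7 of 12 were called lower in iBAT and 3 of 12 in ingSAT at 10 °C, with Nr4a1 at a log2 fold change of -2.57 in iBAT (adjusted p = 0.00453). Their part in the Klf2 and Klf4 results was not tested.

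Other tissue was carried over in iBAT at 10 °C, where Klf2, Klf4 and Klf11 were called. The summed level of 4 skeletal muscle markers was 3770, 4200 and 1930 CPM in the cold and 7000, 5310 and 5040 CPM at 22 °C, with 3 of 4 called lower. That of 4 hepatocyte markers was 1.39, 0.952 and 0.509 CPM against 40.7, 52.8 and 74.9 CPM. Both were lower in every cold library. Epididymis markers summed to 2.77, 2.65 and 29.1 CPM in the cold and were at 0 in all 22 °C libraries. Of 4 brown adipocyte markers 3 were called higher, and Acta2 was called lower. The source of the muscle, hepatocyte and epididymis markers was not tested. Nor was the part of these tissues and cells in the 3 calls.

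Quadriceps gave the opposite sign. Klf4 was 24.3, 41.3 and 18.7 CPM at 10 °C and 11.7, 17.9 and 15.7 CPM at 22 °C, a log2 fold change of 0.89 (SE 0.295, adjusted p = 0.434), with groups apart. Klf2 was 22.3, 26.8 and 11.9 CPM against 10.2, 12.5 and 13.9 CPM, a log2 fold change of 0.74 (SE 0.279, adjusted p = 0.437), and its groups overlapped. At 34 °C both were called lower in quadriceps. Klf2 was 13.9, 11.4 and 13.5 CPM against 16.5, 26.8 and 17.6 CPM (log2 fold change -0.65, SE 0.188, adjusted p = 1), and Klf4 was 18, 10.7 and 16.4 CPM against 21.4, 35.3 and 18.8 CPM (-0.75, SE 0.265, adjusted p = 1).

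These 4 quadriceps calls depended on single libraries. At 10 °C, Klf2 was not called without 22 °C replicate 1 or 2 (0.63 and 0.77) or without 10 °C replicate 1 or 2 (0.67 and 0.50), and Klf4 was not called without 22 °C replicate 1 (0.74) or 10 °C replicate 2 (0.51). At 34 °C neither was called without 34 °C replicate 2 (-0.57 for Klf2 and -0.56 for Klf4) or 22 °C replicate 2 (-0.40 and -0.42). With all 6 quadriceps libraries at 22 °C, the log2 fold changes were 0.34 (Klf2) and 0.49 (Klf4) at 10 °C and -0.34 and -0.44 at 34 °C, and none was called. Klf11 at 10 °C was still called there, at -1.06. Fat markers also differed, since 4 adipocyte markers summed to 627, 707 and 246 CPM at 10 °C and 183, 265 and 175 CPM at 22 °C, with 3 of 4 called higher. Of 4 brown adipocyte markers 3 were called higher, among them Ucp1, at 81 CPM against 0.167 CPM. All 4 pancreas acinar markers were called lower, with summed levels of 0.12, 0.0494 and 0.0532 CPM against 1140, 6.32 and 0 CPM. Epididymis markers summed to 160, 0 and 0.0177 CPM and were at 0 in the 22 °C libraries. At 34 °C Ucp1, Cidea and Plin1 were called lower in quadriceps. The part of these tissues in the Klf2, Klf4 and Klf11 results was not tested.

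**Figure D3:**
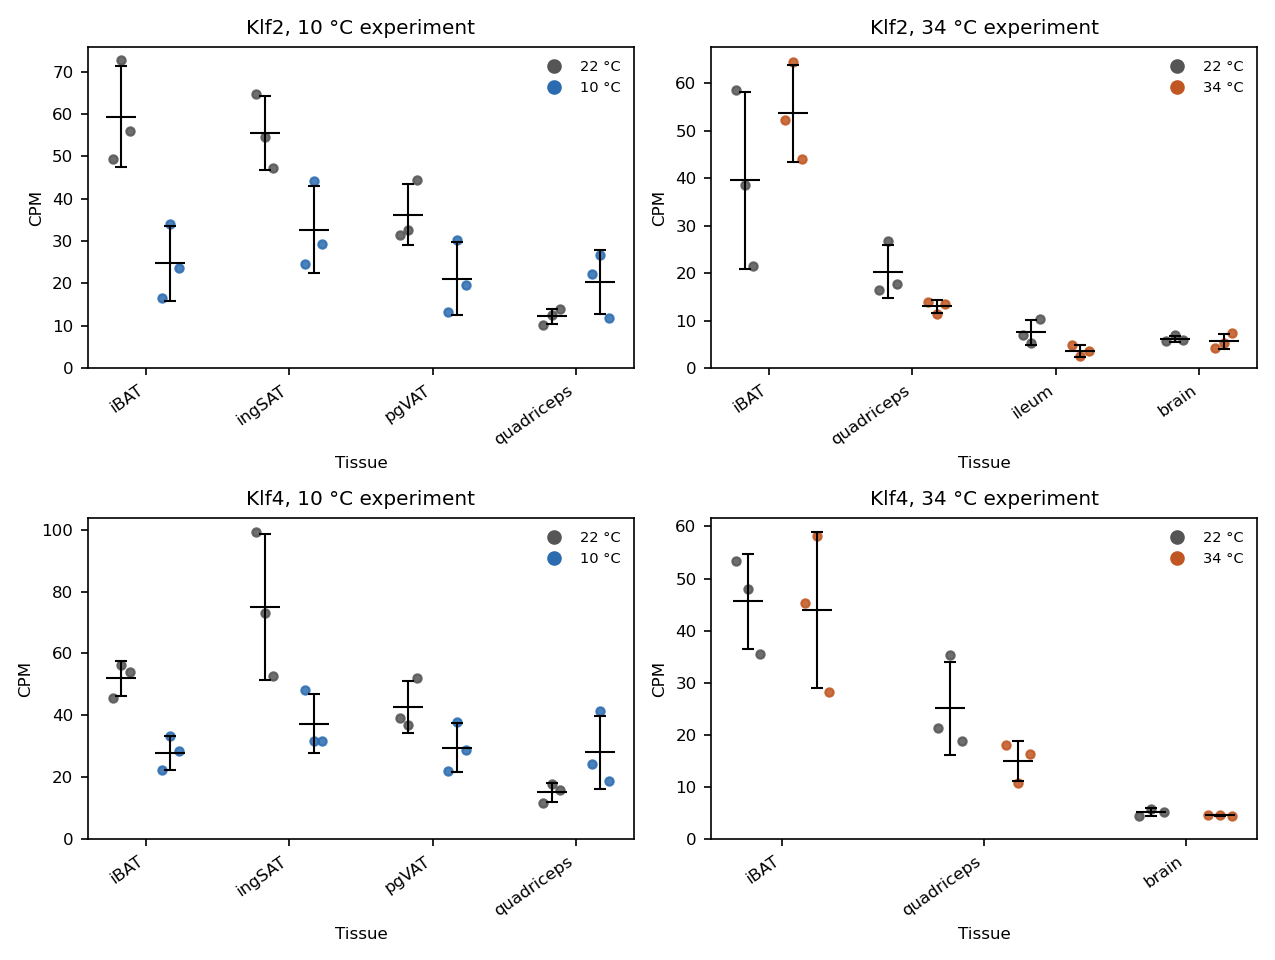
Klf2 (top) and Klf4 (bottom) levels in CPM (vertical axes) by tissue (horizontal axes), with the 10 °C experiment on the left and the 34 °C experiment on the right. Points are libraries, and bars are the mean with SD. In iBAT and ingSAT the cold libraries lie below the 22 °C libraries, and in quadriceps the means lie the other way.

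Ileum at 34 °C gave the last Klf2 call, at 4.86, 2.44 and 3.52 CPM against 7.03, 5.17 and 10.3 CPM (log2 fold change -1.05, SE 0.337, adjusted p = 0.594). The groups were apart at these low levels, and without 22 °C replicate 3 the value was -0.76 and the call was lost. Groups were apart for 13.8% of all genes there. Klf2 is expressed in lymphocytes. In these ileum libraries 4 B cell markers summed to 146, 5.01 and 6.32 CPM against 235, 57.9 and 332 CPM (median log2 fold change of the list -1.97, none called). The 4 T cell markers summed to 45.2, 38.3 and 31.2 CPM against 68.7, 30.2 and 60.1 CPM, and the macrophage gene Cd68 was called lower. The part of these cells in the Klf2 result was not tested. Klf4, which is abundant in differentiated gut epithelium, was 524, 410 and 566 CPM in the same warm ileum libraries against 512, 525 and 488 CPM. In bone marrow at 10 °C Klf4 ranged from 27.9 to 42.4 CPM (median 31.4) against 37.9 to 61 CPM (median 45.6), a log2 fold change of -0.48 (SE 0.117, adjusted p = 0.0128), within the fold limit. The groups overlapped.

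Klf6, a factor induced by injury and by many growth signals, was higher in iBAT at 34 °C. Its level was 78, 121 and 86.1 CPM in the warm and 49.5, 49.2 and 45.8 CPM at 22 °C. The groups did not overlap, as for 48.6% of all genes in this tissue, and the level was 1.97-fold higher (log2 fold change 0.98, SE 0.162, adjusted p = 0.00643). It was the 1 pair at 34 °C whose adjusted p was under 0.05, and the call held when any 1 library was left out, with log2 fold changes from 0.75 to 1.10. Muscle markers were high in all 3 warm libraries and in 1 of the 3 controls, and Ucp1 and Elovl3, markers of active brown adipocytes, were called lower. In the same tissue 6 of 10 endothelial markers were called higher, with a summed level of 1790, 1520 and 1280 CPM against 1170, 942 and 899 CPM. Of 12 immediate early genes 3 were called higher, among them Jun at a log2 fold change of 1.75 (adjusted p = 0.0312). The part of these in the Klf6 result was not tested.

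The other Klf6 call was in pgVAT at 10 °C, at 110, 145 and 94.9 CPM against 186, 213 and 160 CPM (log2 fold change -0.68, SE 0.264, adjusted p = 0.593). It was lost without cold replicate 1 or 3 (-0.64 and -0.55), which carried epididymis RNA, and without 22 °C replicate 1 or 2 (-0.68 and -0.58). Immediate early genes also moved in pgVAT, as given with Klf11. The part of either was not tested. Klf6 in warm ileum was 362, 294 and 304 CPM against 365, 441 and 427 CPM, and in warm quadriceps 24.9, 24.9 and 30.9 CPM against 31.4, 36.3 and 31.2 CPM. Both had groups apart, as for 13.8% and 9.34% of all genes, and log2 fold changes (-0.36 and -0.29) within the fold limit. The effect of temperature on Klf6 differed among tissues at 10 °C (interaction adjusted p = 0.0228) and at 34 °C (adjusted p = 0.00307, as for 12.8% of genes).

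Klf10, an early TGF-beta response gene, was higher at 10 °C in liver and brain. Liver had 29.1, 13.2 and 18 CPM in the cold and 9.28, 11.9 and 11.3 CPM at 22 °C, a log2 fold change of 0.88 (SE 0.253, adjusted p = 0.137). The groups were apart, and without cold replicate 1 the value was 0.53 and the call was lost. The immediate early gene Junb, Cldn5 of endothelium and Acta2 of smooth muscle were called higher in these livers, and their part was not tested. Brain had 42.8, 48 and 49.8 CPM in the cold and 34.6 and 29.4 CPM at 22 °C, a log2 fold change of 0.55 (SE 0.0979, adjusted p = 0.0169) that was within the fold limit. In brain 8 of 12 immediate early genes were called higher, with Fos at 1.34 (adjusted p = 0.000188) and Egr2 at 1.59 (adjusted p = 0.000931). Pituitary markers were called lower in brain (3 of 3 tested) and muscle markers higher (2 of 3). The part of any of these in the Klf10 value was not tested. At 34 °C Klf10 in brain was 24.4, 29.3 and 24.4 CPM against 29.5, 37.9 and 44.5 CPM, a log2 fold change of -0.52 (adjusted p = 1), with groups apart and 3 of 12 immediate early genes called lower. Klf10 had log2 fold changes below 0 in 8 of 11 tissues at 10 °C, with iBAT at -0.30 and spleen at -0.23. The cold effect differed among tissues (interaction adjusted p = 0.0014). Among the genes most like it over the 16 comparisons were the immediate early genes Junb and Dusp1 (r = 0.70 for each), after Gpr146 (0.74).

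**Figure D4:**
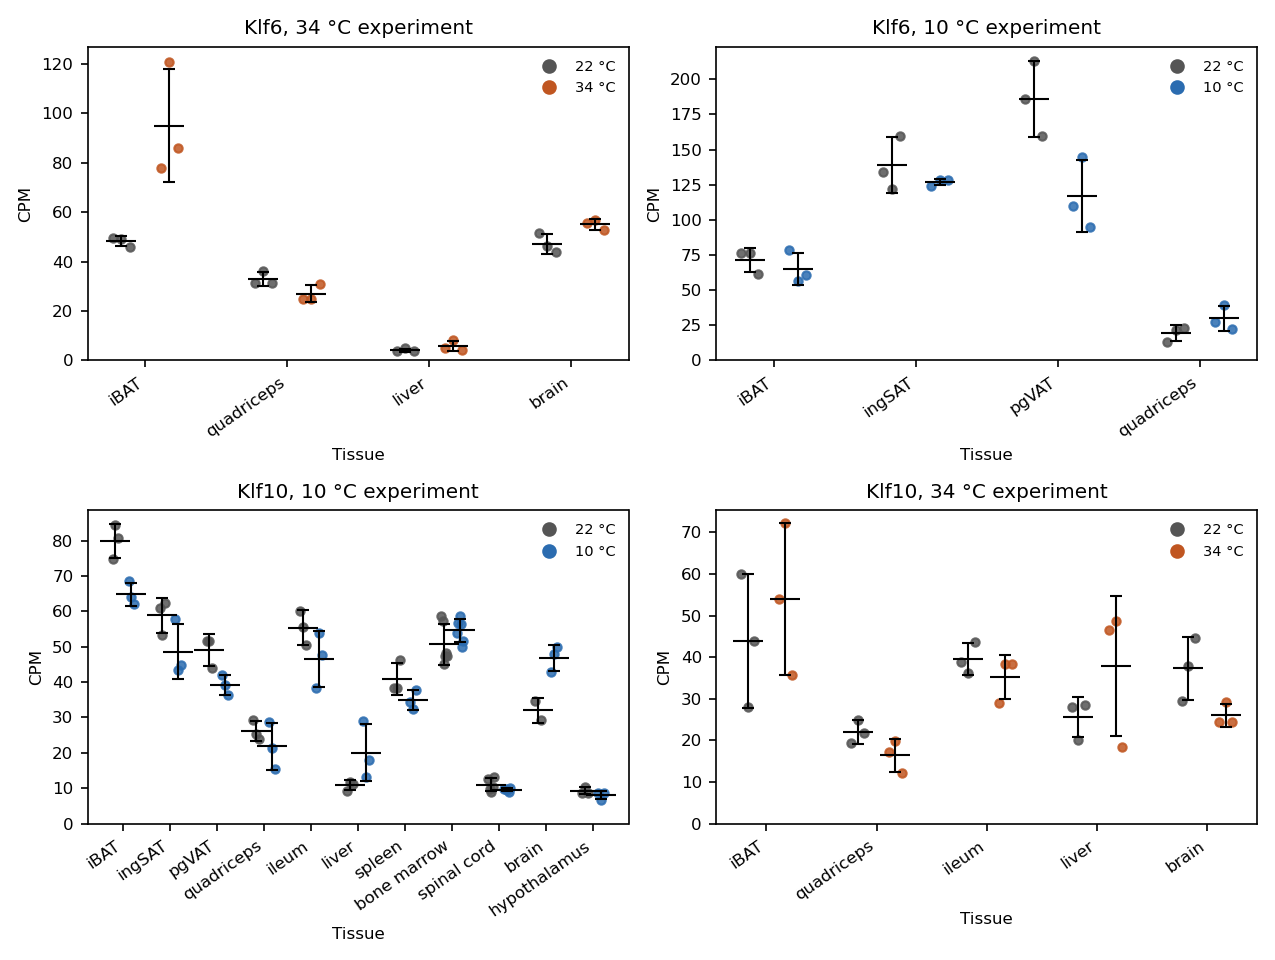
Klf6 (top) and Klf10 (bottom) levels in CPM (vertical axes) by tissue (horizontal axes), for the experiment named above each panel. Points are libraries, and bars are the mean with SD. Klf6 is higher in every 34 °C iBAT library, and Klf10 is higher in every cold liver and brain library.

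Klf5 was at or under the level filter in 4 tissues at 10 °C and in 2 at 34 °C, and was not tested there. Its call in spleen, 0.71, 0.579 and 0.714 CPM against 1.2, 1.15 and 2.63 CPM (log2 fold change -1.31, SE 0.395, adjusted p = 0.485), was at a very low level. In the same spleens 4 neutrophil precursor markers summed to 10.5, 22.2 and 17.2 CPM at 10 °C and 82, 105 and 140 CPM at 22 °C, and their part was not tested. In ileum, where Klf5 was abundant, it was 143, 127 and 131 CPM against 127, 137 and 126 CPM at 10 °C, with overlapping groups and a log2 fold change of 0.04 (SE 0.0701).

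Klf3, Klf9, Klf13 and Klf15 were called in no comparison. Klf3, the CtBP-binding repressor, was higher in bone marrow at 10 °C, from 166 to 234 CPM (median 189) against 127 to 157 CPM (median 141). The groups were apart (log2 fold change 0.47, SE 0.0758, adjusted p = 0.00337), though within the fold limit. In these marrows 3 red cell precursor markers summed to 5910 to 7580 CPM at 10 °C and 4430 to 6040 CPM at 22 °C, 4 B cell markers to 649 to 756 CPM against 468 to 643 CPM, and 4 neutrophil precursor markers to 8030 to 8460 CPM against 8560 to 11700 CPM. Their part in the Klf3 and Klf4 values was not tested. The exons of Gm20033 overlap Klf3 on the other strand. Bone marrow libraries were made with a stranded kit, and whether the counting used strand is not given in the sources used here, so reads of Gm20033 in the Klf3 counts were not tested for. Klf9, a glucocorticoid and thyroid hormone responsive repressor, was 134, 150 and 142 CPM against 162, 164 and 218 CPM in iBAT at 10 °C, a log2 fold change of -0.36 (adjusted p = 0.138). Klf15 in ingSAT was 66.2, 49.7 and 58.2 CPM against 68.9, 109 and 76.2 CPM (-0.55, adjusted p = 0.136), with groups apart. Warm ileum had the highest Klf15 value, 0.99, but its standard error was 0.59. Klf13 stayed between -0.41 and 0.21 at 10 °C and between -0.06 and 0.17 at 34 °C.

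Counts of called members were read against all genes. In iBAT at 10 °C 3 of 9 tested members were called lower and 0 higher, beside 7.24% and 6.00% of all genes. The members' median log2 fold change was -0.35, beside -0.02 for all genes. In ingSAT 3 of 9 were lower and 0 higher, beside 9.14% and 7.20%, and all 9 had values below 0 (median -0.41, beside -0.01). pgVAT had 2 of 9 lower and 0 higher, beside 3.47% and 4.46%, and again all 9 lay below 0 (median -0.38, beside 0.03). Quadriceps had 1 of 10 lower and 2 higher, beside 0.743% and 3.09%. Fewer members were called in the other tissues. Ileum had 1 of 10 lower and 0 higher (1.26% and 1.44%), spleen 1 lower and 0 higher (2.04% and 0.638%) and liver 0 of 9 lower and 1 higher (2.54% and 0.740%). No member was called in bone marrow (0.647% lower and 0.647% higher), although 3 passed adjustment there with changes within the fold limit, spinal cord (0.0904% and 0.181%), brain (0.286% and 0.515%) or hypothalamus (0.179% and 0.399%). At 34 °C, iBAT had 0 of 9 lower and 1 higher (7.19% and 12.2%), quadriceps 2 of 10 lower and 0 higher (0.919% and 0.289%) and ileum 1 of 10 lower and 0 higher (1.26% and 1.57%). No member was called in warm liver (1.61% and 1.77%) or warm brain (0.150% and 0.0429%). The members were chosen with such values in view, so nothing follows from these counts about the family as a whole.

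At 22 °C the members had distinct tissue patterns in the table of 8 tissues. Klf4, Klf5, Klf6 and Klf3 were highest in ileum, at 235, 130, 415 and 316 CPM, and each was apart from the next tissue. Klf5 was the most restricted, since brain came next at 3.11 CPM. Klf2 and Klf13 were highest in spleen, at 154 CPM (SD 32.9, n = 3) and 218 CPM (SD 18.8, n = 3). Klf15 was highest in liver, at 143 CPM (SD 17.6, n = 3), and lowest in ileum, at 3.72 CPM. Klf10 was highest in iBAT, at 79.9 CPM (SD 4.77, n = 3). For Klf9 the first 4 tissues overlapped in turn, from iBAT at 181 CPM to brain at 147 CPM, and for Klf11 the 3 fat depots overlapped at 30.8 to 33.3 CPM, below spleen at 42.9 CPM. When all libraries of the table were scaled together, liver came first for Klf9 and iBAT for Klf11, so the leading tissue of these 2 genes depends on the scaling. On a scale of CPM per kilobase of exon, the leading member was Klf6 in ileum (94.5), Klf2 in spleen (83.1), Klf15 in liver (51.3) and Klf9 in iBAT (37.7) and brain (30.5). In the 22 °C libraries of the 34 °C experiment, Klf4 led in ileum (167) and Klf15 in iBAT (23.2). Klf15 again led in liver (70.6) and Klf9 in brain (32.6). Levels set across the tables are not comparable, since Klf3 at 22 °C in ileum was 316 CPM in one experiment and 132 CPM in the other.

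**Figure D5:**
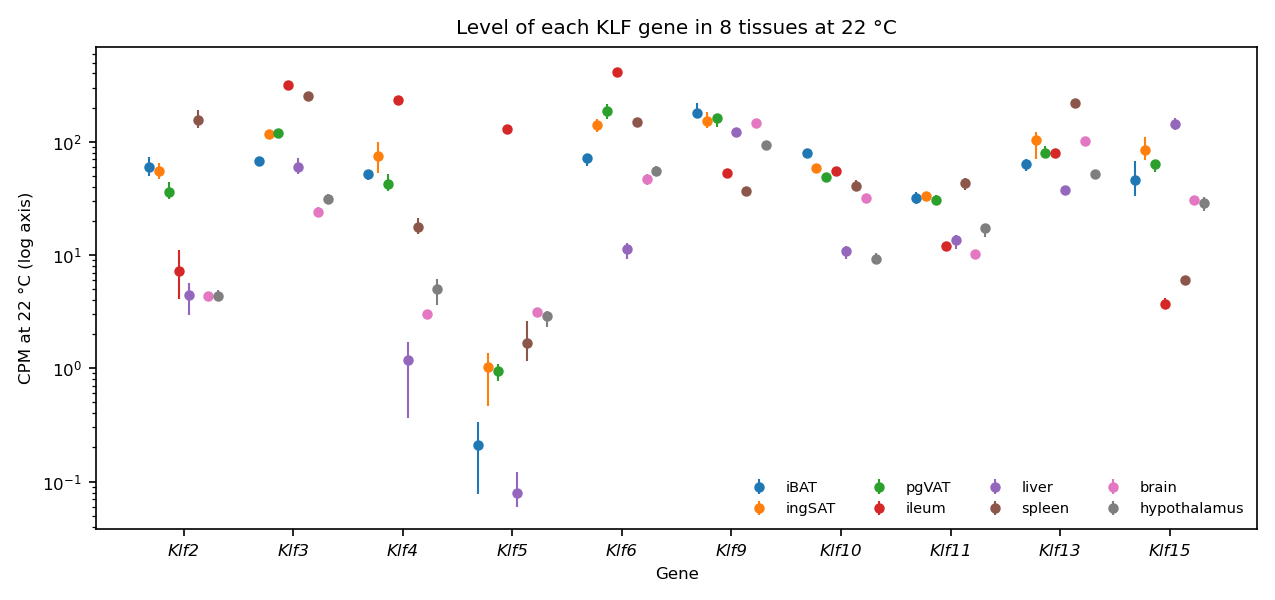
Level at 22 °C in CPM on a log axis (vertical) for each gene (horizontal) in the 8 tissues of one table. Points are means, and bars run from the lowest to the highest library. Klf5 is above 100 CPM in ileum and at 3.11 CPM or less in the other 7 tissues.

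Outside the 10 members, genes of the family and pathway were called as follows, beside the shares of all genes given above. Of 7 other KLF genes, Klf14, a maternally expressed regulator in fat, was lower in ingSAT at 10 °C, at 0.389 CPM against 2.05 CPM (log2 fold change -2.39, SE 0.515, adjusted p = 0.04). Klf1, the erythroid factor, was called lower in spleen (-0.84, adjusted p = 0.485) and Klf7 higher in quadriceps (0.60, adjusted p = 0.444). Of these 7, 5 were tested in ingSAT, 5 in spleen and 3 in quadriceps at 10 °C. Among 9 SP genes, the nearest relatives, Sp2 was called lower in ingSAT (5 tested), pgVAT (6 tested) and liver (5 tested) at 10 °C. Among 12 cofactors, Fhl3, a LIM-domain partner, was called lower in iBAT, ingSAT and quadriceps at 10 °C. At 34 °C it was called higher in iBAT. Sin3b, of the Sin3 complex, was called higher in pgVAT at 10 °C (0.99). None of these SP and cofactor calls passed adjustment. Of 11 upstream genes, the thyroid hormone receptor Thra was lower in ingSAT at 10 °C (-0.63, adjusted p = 0.045) and Mef2d lower in iBAT at 34 °C (-0.78, adjusted p = 0.0155). Thra was also called lower in pgVAT (-0.99, adjusted p = 0.593) and Mef2d in liver at 10 °C (-0.62, adjusted p = 0.114).

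Reported KLF targets showed no single direction. Of 11 listed, 9 were tested in iBAT at 10 °C, where 2 were called higher and 0 lower. In ingSAT 2 were called lower, in pgVAT 1, and at 34 °C 1 was called higher in iBAT and 1 in liver. Thbd, the anticoagulant thrombomodulin and a Klf2 target of endothelium, was higher in iBAT at 10 °C (log2 fold change 0.61, adjusted p = 0.0373) and lower in ingSAT (-1.68, adjusted p = 0.0154), while Klf2 was called lower in both. In iBAT the proline dehydrogenase gene Prodh was also higher (0.63, adjusted p = 0.0258), as was the glucose transporter gene Slc2a4 (0.56, adjusted p = 0.0365), which was within the fold limit. Of 6 glucocorticoid responsive genes, 2 were called lower in iBAT and 3 in ingSAT at 10 °C, and 3 were called higher in iBAT at 34 °C. In pgVAT 2 were called lower, and in ileum 2 higher, at 10 °C. Liver had 1 called lower at 10 °C, and 2 higher and 1 lower at 34 °C. Quadriceps and ileum each had 1 called lower at 34 °C.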

How the data were processed

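The authors sequenced RNA from mouse tissues and deposited 4 tables of raw gene counts, with no normalization. The deposited counts come, per the labels, from STAR 2.5.3a and HTSeq 0.6p1 on mm10, and the study's methods name other releases. Of 21647 Ensembl IDs in 1 table, 21583 matched a symbol. The 106 libraries were grouped by their labels. Quadriceps controls were assigned by the codes in the file headers. For the 10 °C controls these matched the study's tabulated group means in 1999 of 1999 genes, and the assignment of the 34 °C controls was not checked this way. For each comparison, genes were kept if their average log2 CPM exceeded 0, then scaled by TMM and tested with edgeR 4.0.16 (quasi-likelihood test, R 4.3.3), with Benjamini-Hochberg adjustment over all genes. CPM values use TMM within a comparison. DESeq2 1.42.0 and edgeR's exact test were alternatives. Per-kilobase levels use GENCODE M21 exon lengths.

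All members are named. List genes are named where adjusted p was under 0.05 or where the paragraph counts them, and the latter were chosen after their values were seen. The members and lists were chosen with earlier results of these data known. The scripts were tested on simulated data. The tests compare libraries, most of them pools, so p-values measure the spread between pools. No libraries had identical counts. Depth bounds low genes most. ingSAT and pgVAT at 34 °C were not analysed here.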

Additional observations from a re-analysis of the deposited data

Results flagged for a closer look

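The cold effect differed among the 8 tissues of the shared table for Klf6 (interaction adjusted p = 0.0228), Klf10 (0.0014) and Klf11 (0.0199), and the warm effect among 5 tissues for Klf6 (0.00307). At 10 °C the log2 fold change was below 0 in 5 of 11 tissues for Klf6, 8 for Klf10 and 9 for Klf11.

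Among 40 groups of bone marrow and spinal cord libraries, 2 had a library far from the others, and chance gives about 1 in 20. Klf5 in bone marrow at 22 °C had a lowest library of 11.3 CPM, and Klf9 in spinal cord at 10 °C one of 70.8 CPM.

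The brain library at 22 °C that the comparison leaves out (replicate 2) was above all other brain libraries of that experiment for 5 members. It had 5.89 CPM of Klf2, 59.1 CPM of Klf3, 180.0 CPM of Klf9, 18.8 CPM of Klf11 and 110.0 CPM of Klf15, whereas the others reached at most 4.95, 30.4, 150, 10 and 31.4 CPM when scaled together with it, a scaling that differs from that of the comparison. It was also below all others for Klf5 (1.47 CPM), Klf10 (27.7 CPM) and Klf13 (73.4 CPM).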

How the results depend on the processing

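No fold change of the 18 called pairs changed sign in the 232 recomputations. Those by adjusted p kept the fold changes of the main fit, so their sign could not change. All 18 were called by DESeq2, with library-size scaling alone and under edgeR's own count filter, and 16 by edgeR's exact test and with the lowest filter, which lost both pgVAT pairs. With adjusted p under 0.05 and fold above 1.5, 4 pairs were called at 10 °C (Klf2, Klf4 and Klf11 in iBAT and Klf11 in ingSAT) and 1 at 34 °C (Klf6 in iBAT). With all 6 quadriceps libraries at 22 °C, 2 pairs were called at 34 °C. Leaving out 1 library gave 12 to 18 calls at 10 °C and 2 to 6 at 34 °C. The 34 °C count was 2 without quadriceps 22 °C replicate 2. The cause was not tested. Of the 18 pairs, 10 were called in every such refit, which was not run for bone marrow. With all 3 brain libraries at 22 °C, 15 pairs were called at 10 °C. With the replicate number as a block, 15 pairs were called at 10 °C, and the 11 refitted calls all held. Same-numbered libraries did not deviate together throughout (correlations from -0.686 to 0.475), so the numbers were not taken as a pairing. In ileum the correlations were 0.457, -0.0751 and 0.459 for replicates 1, 2 and 3. Library-size scaling moved the median of all genes to -0.18 in iBAT and 0.25 in quadriceps at 10 °C and 0.30 in iBAT at 34 °C, and the share of called genes that were higher from 45.3% to 24.5%, 80.6% to 95.6% and 62.9% to 88.4%. Depth limits the low genes, such as Klf5 in spleen.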

Other observations

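The 22 °C levels of the same tissue differed between the experiments, whose tables were processed separately except for quadriceps. For iBAT, ileum, liver and brain, the study's methods also name different sequencing centres, library kits and sequencers for the 10 °C and 34 °C experiments. The part of each in these differences was not tested. Klf3 in iBAT was 67.7 CPM in one and 26.1 CPM in the other, Klf4 in ileum was 235 and 508 CPM, and Klf13 in brain was 101 and 213 CPM. Both sets of quadriceps controls came from the same table, each scaled within its comparison. There Klf2 was 12.2 and 20.3 CPM, Klf4 15.1 and 25.1 CPM and Klf6 19.4 and 33 CPM, whereas Klf13 was 36.9 CPM in both. Dbp at 22 °C was 1.36 CPM in liver in the 10 °C experiment and 155 CPM in the 34 °C experiment.

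Among the 8 members tested in all 16 comparisons, which leaves out Klf4 and Klf5, the log2 fold changes over 16 comparisons were most alike for Klf2 and Klf6 (r = 0.76) and least for Klf6 and Klf15 (r = -0.16). Klf13 was most like Actn4 (0.93), Klf15 like Ctsf (0.91), Klf6 like Dclre1c (0.92) and Tyrobp (0.89), a myeloid adaptor, Klf2 like Pitpnm1 (0.87) and Apoe (0.86), Klf9 like Pxdn (0.83) and Klf3 like Eif4enif1 (0.80). These are descriptions over points that share tissues and animals.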
